A study of Mus musculus with 6 samples.

Results

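Cells rich in Il9 transcript but placed outside the Il9-rich cluster were examined in cultures of mouse T helper 9 (Th9) cells, CD4 T cells that make the cytokine IL-9. A cell was included when its Il9 value was at least 10 corrected counts and its deposited cluster number was 0, 1, 3, 4 or 5. Of 27258 cells, 2473 met this rule, 1030 of 12755 wild-type and 1443 of 14503 Cblb-/- cells. The cells were thus chosen by their Il9 level and deposited cluster, and every statement on Il9 itself, on cell numbers and on cluster 2 (the Il9-rich cluster, 2716 cells) is a description without a test. Both genotypes had the same culture: naive CD4+ T cells from spleen, 48 h with human TGFβ at 3 ng/ml, IL-4 at 20 ng/ml and anti-IFNγ at 20 µg/ml, then purification with CD4 MicroBeads. There were 3 wild-type libraries (A, B and C here) and 3 Cblb-/- libraries (D, E and F). Cblb encodes CBL-B, a ubiquitin ligase that restrains T cell activation. The labels do not say which part of the gene is deleted, the age of the mice, or whether samples of a genotype came from separate mice or cultures, so the p-values below cover only variation among these samples and that variation may be technical.

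In T cells IL-9 is induced when TGF-beta and IL-4 act together with signals from the T cell receptor and IL-2. The IL-4 signal reaches the nucleus through STAT6, the IL-2 signal through STAT5, and the receptor signal through AP-1 complexes of JUN, FOS and BATF-family proteins with IRF4. BATF3 is such a BATF-family protein. SGK1 is a serum- and glucocorticoid-regulated kinase whose transcript follows growth factor and salt signals. Batf3 and Sgk1 were followed, beside Il9, as marks of these cells.

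The sequences upstream of Il9 and of the transcripts with the largest and second largest rise in the cells studied, Batf3 and Lta, are shown because the factors named above bind DNA motifs that can be searched there. They are the 250 bases before the transcript start (RefSeq, GRCm38.p6), 5′ to 3′ on the strand of the gene. Capitals mark matches on either strand to an AP-1 motif (TGANTCA), a STAT motif (TTCNNNGAA) or a STAT6-type motif (TTCNNNNGAA). No capital stretch overlaps another. In mm10 (GENCODE M21) the gene bodies are chr13:56479277-56482246 for Il9, chr1:191097847-191108945 for Batf3 and chr17:35203165-35205351 for Lta. The Batf3 sequence lies inside that gene body, as GENCODE places the start of Batf3 upstream of the RefSeq start used here.
Il9, chr13:56482258-56482507, minus strand: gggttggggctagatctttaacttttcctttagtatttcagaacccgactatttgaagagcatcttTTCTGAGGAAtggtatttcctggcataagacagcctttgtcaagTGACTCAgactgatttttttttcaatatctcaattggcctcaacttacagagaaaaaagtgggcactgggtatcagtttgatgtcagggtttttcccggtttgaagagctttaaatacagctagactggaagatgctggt
Batf3, chr1:191098164-191098413, plus strand: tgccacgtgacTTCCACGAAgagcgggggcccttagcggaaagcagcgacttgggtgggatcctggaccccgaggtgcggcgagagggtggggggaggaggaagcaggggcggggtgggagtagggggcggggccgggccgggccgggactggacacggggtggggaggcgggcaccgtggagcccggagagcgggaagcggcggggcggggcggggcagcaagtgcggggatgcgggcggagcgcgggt
Lta, chr17:35205352-35205601, minus strand: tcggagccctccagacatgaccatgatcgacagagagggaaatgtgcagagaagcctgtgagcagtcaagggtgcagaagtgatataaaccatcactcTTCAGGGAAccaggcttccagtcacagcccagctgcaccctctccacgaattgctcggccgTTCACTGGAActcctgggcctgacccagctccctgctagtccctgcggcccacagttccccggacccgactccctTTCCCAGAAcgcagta
The search used windows from 250 bases before to 50 bases after the start, and 11 of 13 genes asked (Il9 and the 12 largest rises below) had such a window. TGANTCA occurred in 3 of the 11 (Il9, Ctla2a and Il1a) and in 7.81% of all 32851 promoters. TTCNNNGAA occurred in 5 (Batf3, Sgk1, Lta, Serpina3g and Ctla2a) against 8.3% of all promoters, and TTCNNNNGAA in 2 (Il9 and Lta) against 6.95%. Genes with several annotated starts had several windows, and a match is only a match of letters.

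Depth and identity of the libraries were as follows. Libraries held 3423 to 5666 cells and 149381789 to 229387950 raw unique molecular identifiers (UMIs), with medians of 35573 to 39628 per cell. The defining transcripts of CD4 T cells (10 genes) summed to 2122 to 2458 parts per 1000000 of the corrected counts (ppm) in the cells studied and to 2411 to 2702 ppm in Il9-low cells. Of 10 mast cell genes in the table, Cpa3, Mcpt1, Mcpt8, Ms4a2, Fcer1a, Cma1 and Gata2 were at 0 in the cells studied, and Srgn, which T cells also express, gave nearly all of the list's sum (167 to 334 ppm, and 226 to 336 ppm in Il9-low cells). Nkg7 led the CD8 and NK cell list (9 genes in the table, Klrb1c at 0), whose sum was 11.1 to 34.2 ppm in them and 26.8 to 43.9 ppm in Il9-low cells. B cell genes summed to 101 to 147 ppm against 85.3 to 128 ppm, and myeloid genes to 98.2 to 194 ppm against 112 to 182 ppm. Most of each sum was 1 gene, with means in the cells studied of 90.6 ppm for Cd74 (B cell list) and 98.1 ppm for Cst3 (myeloid list). Under 1 ppm in them were 5 of 10 B cell genes and 6 of 10 myeloid genes. The part of these markers in the results was not tested. Of all barcodes, 76 occurred in more than 1 library, and 14 of the cells studied carried such a barcode. No doublet caller was run, and 60 of the cells studied and 100 Il9-low cells had more than 100000 raw UMIs. Free Il9 RNA in the droplets was not tested.

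Cblb transcript checked the genotype labels. In the Il9-high cells outside cluster 2 it was 22.2, 23 and 19.4 ppm in A, B and C and 14.1, 11.9 and 14.2 ppm in D, E and F. Each knockout library was below each wild-type library, yet none was near 0. Tags from the 3′ end outside a deleted part would still be counted, but where these tags lie was not tested. The log2 difference was -0.65 (SE 0.10, limma adjusted p = 0.00245).

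Most of the cells studied came from cluster 1. It held 1656 of them, cluster 0 held 412, cluster 5 held 284, cluster 3 held 98 and cluster 4 held 23. By library there were 367 (A), 282 (B), 381 (C), 375 (D), 513 (E) and 555 (F). Within cluster 1 they were 13.2% of wild-type and 26.8% of knockout cells, and within cluster 5, whose leading transcript is that of the steroid-converting enzyme Akr1c18, 16.1% and 41.7%. Cluster 0 gave 61 wild-type and 351 knockout cells, or 1.51% and 4.72% of its cells.

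Cells outside cluster 2 made up most Il9-high cells of wild-type cultures, but held a minor part of the Il9 transcript. They were 61.6%, 62.9% and 58.9% of all Il9-high cells in A, B and C and 37.9%, 47.4% and 38.9% in D, E and F. Their part of all Il9 counts was 24.5%, 25.7% and 22% in A, B and C but 10.7%, 16.6% and 10.8% in D, E and F. In neither measure did the genotypes overlap. As part of the whole library the cells were 9.41%, 6.56% and 8.37% in wild-type and 11.0%, 9.05% and 10.3% in knockout libraries, where the genotypes overlapped.

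Cluster 2 membership followed the Il9 value closely except between 30 and 49 counts. The median Il9 value was 19 to 21 per library in the cells studied and 78.5 to 113 in cluster 2, where no cell was below 11. Among cells with 10 to 19 Il9 counts 0.329% lay in cluster 2, among those with 30 to 49 counts 41.3%, and among those with 50 to 99 counts 95.5%. In the range of 30 to 49 counts, cluster 1 held 407 and cluster 2 held 351 cells. Cluster 1 ended at 51 counts. Of 122 cells of clusters 0, 1, 3, 4 and 5 with 50 or more counts, 119 were in cluster 5, where the highest value was 1458. At the edge of the rule the 172 cells with exactly 10 counts had 124.6 ppm Batf3 and 11.3 ppm Sgk1, and the 212 cells with 9 counts had 124.1 and 15.9 ppm.

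**Figure D1:**
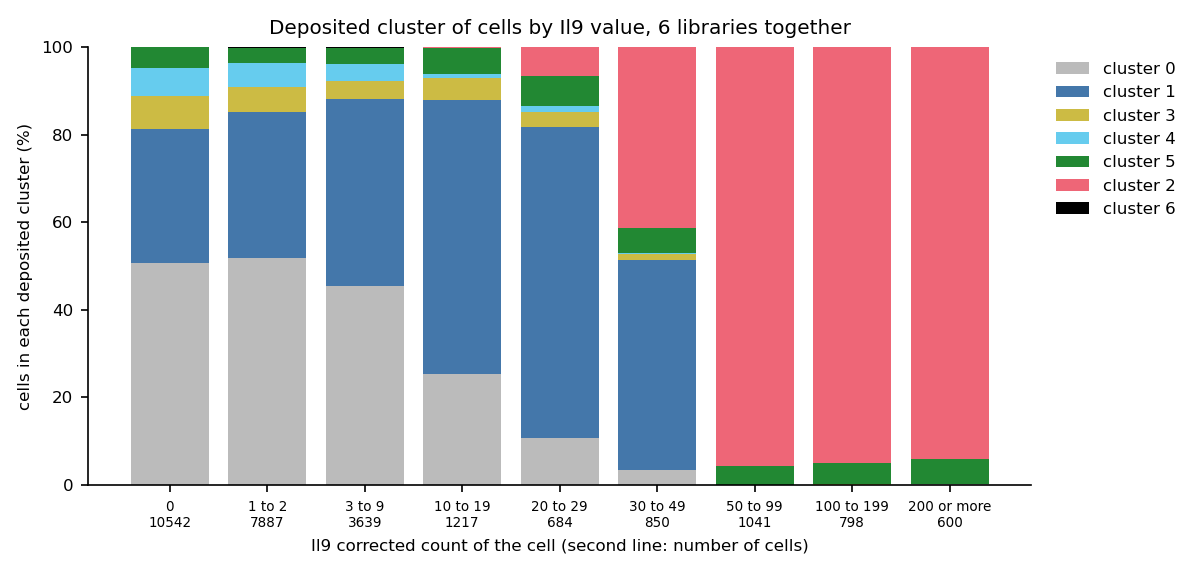
Percentage of cells in each deposited cluster (stacked bars, y axis) by the Il9 corrected count of the cell (x axis), with the number of cells under each bar, all 6 libraries together. Cluster 1 is the largest class from 10 to 49 counts, and from 50 counts on nearly all cells are in cluster 2 (red) or cluster 5 (green).

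The first comparison asked what else the Il9-high cells carried. They were compared, within each library, with the 18412 Il9-low cells (0 to 2 counts) of the same clusters, weighted to the same cluster makeup. Genes averaging 5 ppm or more were tested, 8460 in all, and 1442 (17.0%) were higher and 1631 (19.3%) lower in the Il9-high cells (limma on log2(ppm + 1), library as block, adjusted p under 0.05). In all, 36.3% of the genes were called. With TMM scaling the split was 944 higher and 2448 lower, and with means per cell without division by the total it was 1611 higher and 1418 lower. The balance of rises and falls thus depended on the scaling. Most differences were small: only 9 of the higher and 6 of the lower genes changed at least 2-fold. The signs were the same in all 6 libraries for 31.8% of genes tested, and the named genes below were taken from these.

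Batf3 had the largest rise. It was 44.3, 33.3 and 29.4 ppm in the Il9-low cells of A, B and C and 153, 109 and 123 ppm in their Il9-high cells. In D, E and F it went from 58.2, 65.4 and 69.1 ppm to 163, 183 and 177 ppm. The 2 kinds of cell did not overlap, and the log2 difference was 1.62 (SE 0.06, adjusted p = 3.6e-10), higher in 6 of 6 libraries. Atf3, a stress-induced relative in the bZIP family, rose from 10.7 to 22.3 ppm to 23.8 to 48.8 ppm over the libraries (log2 difference 1.06, SE 0.04, adjusted p = 3.7e-10). Among other factors of the Th9 program, Irf8 rose by 0.47 and Gfi1 by 0.26 on the log2 scale, while Foxp1 fell by 0.24. In that list 10 of 24 tested genes rose and 6 fell, which TMM scaling turned to 7 and 8. Without that scaling 17.0% of all genes were called higher and 19.3% lower. Irf4 (0.05, adjusted p = 0.033) and Batf (0.11, adjusted p = 0.0055) moved little.

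Kinase, inhibitor and metal-binding genes followed. Sgk1 was 10.7, 6.69 and 5.68 ppm in wild-type Il9-low cells and 29.7, 19.8 and 18.9 ppm in Il9-high cells. In knockout libraries it was 8.51, 7.86 and 5.91 ppm against 18.8, 16.5 and 12.5 ppm. All Il9-high sums lay above all Il9-low sums (log2 difference 1.23, SE 0.08, adjusted p = 4.9e-08). Ctla2a, an inhibitor of cysteine proteases, rose in every library, from 41.5 to 71.3 ppm to 88.4 to 143 ppm (1.03, SE 0.04). Serpina3g, a serpin of activated T cells, rose by 1.18 and Mt1, a metallothionein that binds zinc, by 1.14. Mt1 was far higher in library F (43 and 80.9 ppm) than elsewhere (5.71 to 10.4 and 11.9 to 21.6 ppm). Anxa3, a calcium-dependent phospholipid-binding protein, rose by 1.05, the alpha-kinase gene Alpk2 by 0.93 and Gatm, the first enzyme of creatine synthesis, by 0.88.

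Secreted products rose and fell. Lta, the lymphotoxin of the TNF family, was 117 to 159 ppm in Il9-low and 290 to 499 ppm in Il9-high cells, with no overlap (log2 difference 1.38, SE 0.04, adjusted p = 6.6e-11). Nppc, the precursor of C-type natriuretic peptide, rose by 1.07 and Il1a, interleukin-1 alpha, by 0.98. Csf1, the macrophage growth factor, went the other way, from 6.89 to 19.2 ppm to 2.06 to 9.76 ppm, lower in 6 of 6 libraries although the ranges overlapped (-1.07, SE 0.10, adjusted p = 1.9e-06). Il2 also fell, by 0.37 (adjusted p = 3.8e-05). Of 29 secreted cytokines 15 passed the filter, and of these 10 rose and 3 fell (median 0.34, all genes -0.0035). Of all genes 17.0% were called higher and 19.3% lower. The filter can favour cytokines high in 1 kind of cell or 1 genotype, so the count is no support for a general rise. Il13 rose on average (0.93, adjusted p = 0.0012) but not in library C.

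**Figure D2:**
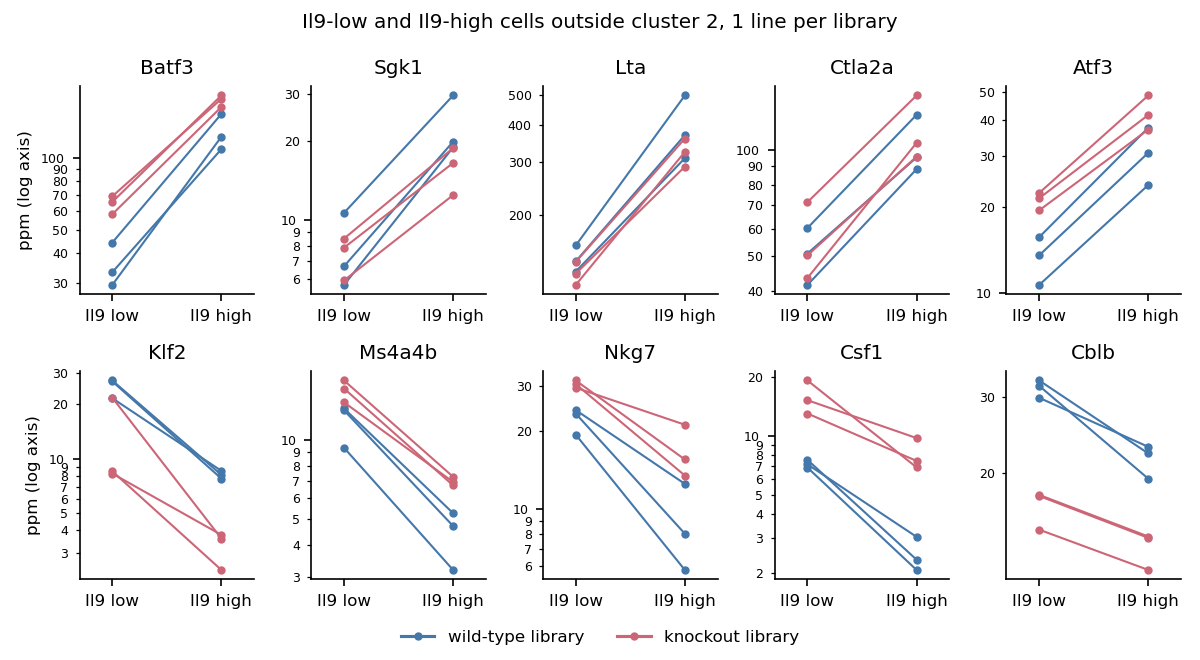
Level in ppm (log axis, scale differs by panel) of 10 genes in Il9-low and Il9-high cells outside cluster 2, 1 line per library (blue wild type, red knockout). All 6 lines rise for Batf3, Sgk1, Lta, Ctla2a and Atf3 and all 6 fall for Klf2, Ms4a4b, Nkg7, Csf1 and Cblb.

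Among transcripts with one sign in all libraries, Klf2, a factor of quiescence and recirculation, fell most. The mean fall of Xcl1 was as large (-1.59, adjusted p = 0.0096) but was not seen in libraries D and E. Klf2 was 26.9, 27.2 and 21.7 ppm in wild-type Il9-low cells and 7.75, 8.12 and 8.55 ppm in Il9-high cells. In knockout libraries it was 8.27, 21.8 and 8.51 ppm against 3.77, 3.6 and 2.41 ppm. The fall was seen in 6 of 6 libraries (-1.55, SE 0.12, adjusted p = 4.2e-07), although wild-type Il9-high cells overlapped with the Il9-low cells of D and F. Ms4a4b and Ms4a6b, membrane proteins of T cells, had differences of -1.16 and -0.87, and Nkg7, a cytotoxic granule protein, of -1.08. Filip1l (a filamin-interacting protein) gave -1.14, Myh10 (a nonmuscle myosin heavy chain) -0.83, Bdh2 (a hydroxybutyrate dehydrogenase) -0.81 and the potassium channel Kcnk10 -0.80. Igfbp7, a secreted binding protein, gave -0.78, Pacsin1, which bends membranes in endocytosis, -0.74, and the pseudokinase Trib2 -0.72. Cblb fell in both genotypes, by 0.42 over the 6 libraries (SE 0.05, adjusted p = 3.3e-05).

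Gene lists described the wider profile. The lists were chosen with earlier results of these data known, so their counts are read only beside the 17.0% of all genes called higher and 19.3% called lower. Of 19 IL-2 and STAT5 response genes 14 rose and 1 fell (median 0.24). Socs2, an inhibitor of cytokine signalling, went from 96.8 to 149 ppm to 149 to 218 ppm (0.63, SE 0.02), Il2ra, the IL-2 receptor alpha chain, rose by 0.48, and Osm and Lif rose by 0.50 and 0.49. Of 24 targets of ATF4, which drives amino acid supply under stress, 23 rose and none fell (median 0.17), with Nupr1 at 0.74, Trib3 at 0.53 and Asns, asparagine synthetase, at 0.37. TMM scaling left 17 of these 24. Of 32 MYC and ribosome biogenesis genes 25 rose and 2 fell (median 0.10), and 15 and 3 with TMM scaling.

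Metabolic and stress lists leaned upward as well. Of 20 hypoxia genes 11 rose and none fell, with Egln3 at 0.55, Hilpda at 0.45 and Vegfa at 0.42. Of 17 glycolysis genes 9 rose and 1 fell, led by Hk2, hexokinase 2, at 0.50. Of 19 unfolded protein response genes 12 rose and 2 fell, and of 28 cholesterol and fatty acid genes 13 and 2, among them Scd1 (0.44) and Fasn (0.30). TMM scaling gave 6 and 4 for the last list. Of 36 S phase genes 13 rose and 4 fell (8 and 6 with TMM scaling), but of 38 G2 and mitosis genes none rose and 26 fell (median -0.12), such as Nusap1 (-0.31) and Smc4 (-0.23).

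Receptor and antigen-signalling lists leaned downward. Of 17 inhibitory and costimulatory receptors 1 rose and 11 fell (median -0.24). Slamf6 gave -0.72, Tox, a factor listed with them, -0.60, Cd28 -0.58 and Lag3 -0.57, whereas Ctla4 (-0.02, adjusted p = 0.84) and Pdcd1 (-0.11, adjusted p = 0.11) did not pass the test. The early steps of T cell receptor signalling were covered by 37 genes, of which 19 fell and 4 rose. Falls included the phosphatase Ptpn22 (-0.43), the adaptor Sla (-0.36) and the zeta chain Cd247 (-0.36). Of the 10 CD4 T cell genes 9 fell and none rose, for example Cd3e (-0.33) and Trbc2 (-0.29). Of 15 naive and quiescence genes 11 fell and 2 rose, with Ccr7 at -0.49 and Satb1 at -0.34. The immediate early genes of the receptor signal were divided, 8 up and 7 down of 27 (6 and 11 with TMM scaling). Genes of other T helper fates also differed. Of 13 genes of regulatory T cells 6 rose and 1 fell, and of 6 Th2 genes 3 rose and none fell. Of 6 Th1 and cytotoxic genes 1 rose and 4 fell, as did 1 and 4 of 6 Th17 genes.

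Depth moved with these results. Median raw UMIs per cell were higher in Il9-high than in Il9-low cells by 4972 (A), 5961.5 (B), 7206 (C), 2573 (D), 1295 (E) and 177 (F). The mean was 3697 ± 2775 (SD, n = 6, higher in 6 of 6, exact two-sided sign-flip test p = 0.03125, the smallest 6 libraries can give). Genes detected rose by 156 and the mitochondrial share by 0.139 percentage points (each p = 0.03125 in the same exact test). The values of genes were already corrected for depth by the authors. Among cells whose raw total was within 20% of the median, all 12 named rises and all 11 named falls that passed the filter were called in the same direction. These genes were picked as the largest differences in the same data, so that is no independent support. Over all genes 901 were called higher and 1360 lower in this range, against 1442 and 1631 without it.

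The same genes moved within clusters taken alone. They were picked from these same cells, 1656 of which were in cluster 1, so the calls within clusters are a description and no independent support. In cluster 1, all 12 named rises and the 10 named falls that passed the filter were called. In cluster 5, all 12 rises and 12 falls had the same direction and 11 and 10 were called. In cluster 0, the 10 rises and 12 falls tested had the same direction and 7 and 8 were called. Klf2 was called in cluster 1 (-1.85), but neither in cluster 0 (-0.55, adjusted p = 0.26) nor in cluster 5 (-0.83, adjusted p = 0.10). Clusters 3 and 4 had too few such cells in some libraries for a fit, and Klf2 was 7.94 ppm in the 98 Il9-high cells of cluster 3 against 4.28 ppm in its Il9-low cells.

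Levels changed with Il9 below as well as above the limit of 10 counts. In cluster 1 Batf3 was 57.2 ± 24.1 ppm at 0 Il9 counts, 108 ± 30.4 at 3 to 9, 150 ± 33.2 at 10 to 19 and 160 ± 43.8 at 30 to 49 (mean ± SD of 6 libraries). In cluster 5 it went on from 39.8 ± 25.5 at 0 to 302 ± 56.5 ppm at 200 or more counts. Cluster 2 cells stood at 203 ± 28.9 ppm at 30 to 49 counts and at 297 ± 47.9 at 200 or more. Lta went from 129 ± 24.9 to 358 ± 57.5 ppm in cluster 1 and from 130 ± 45.4 to 940 ± 446 ppm in cluster 5. Klf2 was 20.9 ± 9.49 ppm in cluster 1 at 0 counts, 25.7 ± 8.59 at 1 to 2, 13 ± 1.98 at 3 to 9 and 6.38 ± 2.29 at 10 to 19. Bins of cluster 5 held as few as 2 cells in a library, and the SDs there are wide.

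**Figure D3:**
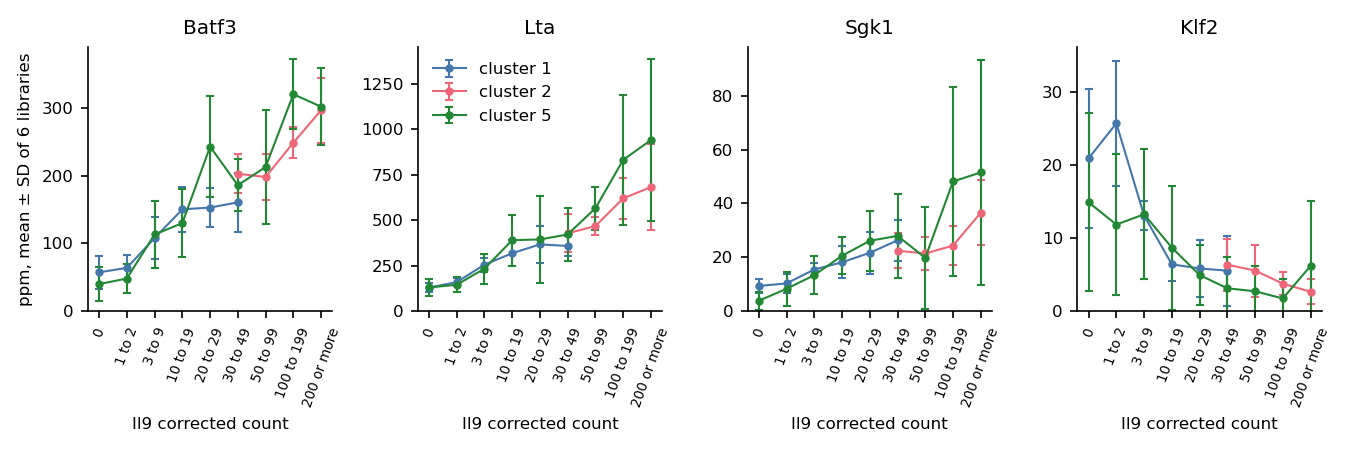
Level in ppm (y axis, mean ± SD of 6 libraries) of Batf3, Lta, Sgk1 and Klf2 by Il9 corrected count of the cell (x axis) in clusters 1, 2 and 5. Batf3, Lta and Sgk1 climb with Il9, Klf2 is lower from 10 counts on than at 0 counts, and at 200 or more counts Batf3 stands at 302 ± 56.5 ppm in cluster 5 and 297 ± 47.9 ppm in cluster 2.

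Set beside cluster 2, the cells held a middle place. For all 12 named rises the mean of cluster 2 lay above that of the cells studied, and for all 12 named falls below it, though not in every library. Klf2 was higher in cluster 2 in B (9.07 against 8.12 ppm), E (4.01 against 3.6 ppm) and F (2.61 against 2.41 ppm). Mt1, Anxa3, Alpk2, Gatm, Filip1l, Nkg7, Csf1, Ms4a6b, Myh10 and Pacsin1 went the other way in 1 library each. Batf3 averaged 49.9 ppm in Il9-low cells, 151 in Il9-high cells outside cluster 2 and 229 in cluster 2. Lta averaged 136, 359 and 544 ppm and Nppc 6.84, 16.1 and 29.1 ppm. Some transcripts that mark single clusters were at like levels in both kinds of cell and others were not. Akr1c18 was 717 ppm in Il9-high and 598 ppm in Il9-low cells of cluster 5, against 6.92 ppm in cluster 2. Ccl4, a chemokine, was 907 and 915 ppm in cluster 3, and Ccl20 was 821 and 798 ppm in cluster 4. Il2 was 550 and 595 ppm in cluster 0 but 71.8 and 94.9 ppm in cluster 1. In cluster 1, which held most of the cells, Klf2 was 5.66 against 27 ppm and Foxp3 18 against 21.4 ppm. In cluster 0 Tmem176a, a membrane protein, was 92.6 against 129 ppm. A ranking against cluster 2 took only named genes of at least 20 ppm with the same sign in all 6 libraries, so lower transcripts such as Il1a were left out. Within it, besides Akr1c18 (median log2 difference 3.56), the transcripts most above cluster 2 were Slamf6 (0.42), Pou2f2 (0.39), Exoc2 (0.36), Rgs10 (0.34) and Chst2 (0.34). Those most below cluster 2 in this ranking, after Il9 (-2.16), were Nppc (-0.73), Batf3 (-0.64), Atf3 (-0.60), Lta (-0.60) and Lmna (-0.47).

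The second comparison set knockout against wild-type Il9-high cells outside cluster 2. Il9 itself was 701, 647 and 641 ppm in A, B and C and 896, 842 and 826 ppm in D, E and F, given without a test. Of 8483 genes, 18.0% were called: 687 (8.10%) were higher and 843 (9.94%) lower in the knockout, 80 and 17 of them at least 2-fold. The groups of libraries did not overlap for 37.6% of genes tested. The counts depended on single wild-type libraries: without A they were 369 and 315, without B 407 and 397, and without C 424 and 406. The cluster makeup also differed, since cluster 0 gave 5.92% of wild-type and 24.3% of knockout cells. With both genotypes weighted to one makeup, 601 and 717 genes were called.

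Secreted proteins were the largest rises. Il13, a type 2 cytokine, was 1.28, 2.68 and 1.03 ppm in A, B and C and 242, 16.3 and 80.7 ppm in D, E and F (log2 difference 4.77, SE 0.71, adjusted p = 0.0021). Library E was far below D and F but above all wild-type libraries. By cluster, Il13 pooled over the Il9-high cells of both genotypes was 210 ppm in cluster 0, 6.69 in cluster 1, 353 in cluster 3 and 44 in cluster 5. These values mix genotypes, as cluster 0 held 351 knockout and 61 wild-type cells. In cluster 3 the wild-type libraries were at 0 to 3.89 ppm, so its value came almost wholly from 25 knockout cells among 98. With one cluster makeup the difference between genotypes was 4.81. Ccl22, a chemokine for CCR4, was 0.142, 0.0923 and 0.0684 ppm in A, B and C against 26, 11.5 and 13.6 ppm in D, E and F (3.95, SE 0.25, adjusted p = 2.1e-05). Csf2, the cytokine GM-CSF, was 0.213, 1.38 and 0.274 against 45.8, 12.2 and 15.7 ppm (3.81, SE 0.42, adjusted p = 0.00054). Il13, Ccl22, Csf2, Inhba, Penk, Sema4f and Gpr65 averaged under 5 ppm in the wild type and passed the filter on low values through the knockout. Such a gene was tested only if high in the knockout, so its direction was set by the filter. Their limma values are therefore a description, and their folds depend on the pseudocount. Inhba, a subunit of activin A, rose by 2.31 and Penk, the precursor of enkephalins, by 2.26. Of 29 secreted cytokines 15 passed the filter, and of these 10 rose and 1 fell (median 0.93, all genes -0.02). Of all genes 8.10% were called higher and 9.94% lower. Il13, Csf2, Inhba and Penk are among the 15. A cytokine low in the wild type could enter only by being high in the knockout, so this count is no support for a general rise.

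Other rises were in enzymes, receptors and factors. Gatm was 11.3, 13 and 12.8 ppm in the wild type against 44.1, 60.6 and 110 ppm (2.34, SE 0.25, adjusted p = 0.00047). Ece1, an endothelin-converting protease, was 7.11 to 7.25 ppm against 25.5 to 39.3 ppm (1.94, SE 0.14). The nuclear receptor Nr4a2 rose by 2.11, the semaphorin Sema4f by 2.23 and the proton-sensing receptor Gpr65 by 2.01. List counts are read beside the 8.10% of all genes called higher and 9.94% called lower. Of 21 NF-kB genes 12 rose and none fell, with Bcl3 at 1.0 and Traf1 at 0.83. Of 17 MHC class I genes 11 rose and none fell, although H2-Q6 (1.56) and H2-Q7 (1.45) are near-identical copies between which reads can be divided. The TNF family gave 10 rises and 1 fall among 17 genes, and interferon-inducible genes gave 7 and 1 among 11. The filter dropped other members of these lists (23 and 29 genes in all), and it can favour genes high in 1 genotype.

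**Figure D4:**
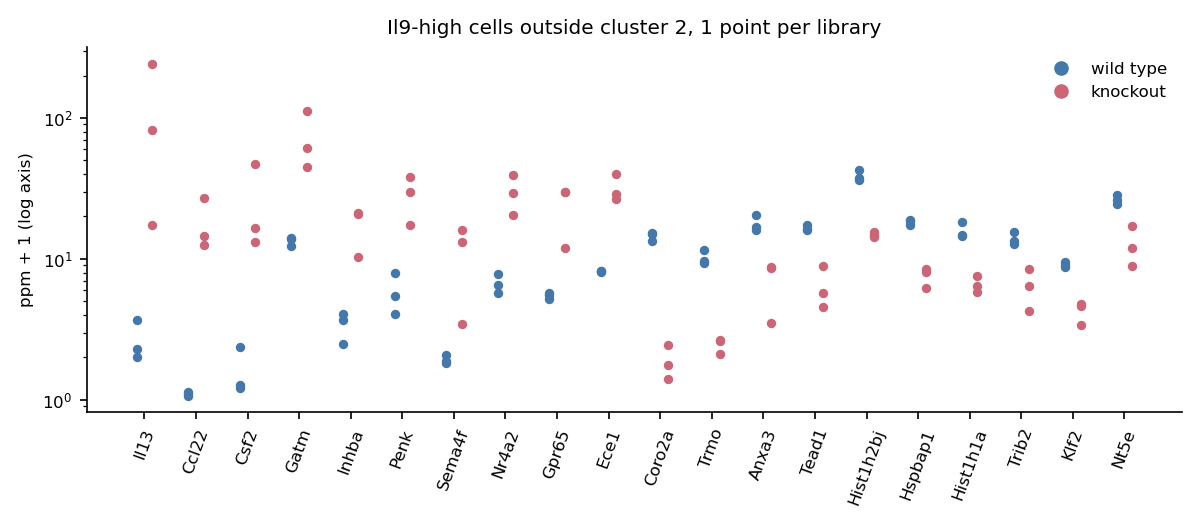
Level of 20 genes in Il9-high cells outside cluster 2, as ppm + 1 on a log axis, 1 point per library (blue wild type, red knockout). For each gene the groups of libraries do not overlap, since that was part of the choice, and knockout points spread more widely for Il13, Csf2 and Sema4f.

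Falls of at least 2-fold were fewer. Coro2a, an actin-binding coronin, was 14.2, 14.1 and 12.3 ppm in A, B and C and 0.768, 0.411 and 1.46 ppm in D, E and F (-2.99, SE 0.19, adjusted p = 2.3e-05). In the knockout Coro2a, Trmo and Klf2 averaged under 5 ppm and passed the filter through the wild type. The direction of their differences was thus set by the filter, and their limma values are a description. Trmo, a tRNA methyltransferase gene, was 8.32, 8.68 and 10.5 against 1.67, 1.13 and 1.60 ppm (-2.04, SE 0.15). Anxa3 gave -1.47, Tead1, a factor of the Hippo pathway, -1.43, Hspbap1 -1.29, Trib2 -1.16, Klf2 -1.12 and Nt5e, the ectonucleotidase CD73, -1.11. The histone genes Hist1h2bj (-1.39) and Hist1h1a (-1.27) belong to a multigene family whose reads can be divided among copies. Irf8, which rose with Il9, was 246 to 338 ppm in A to C and 148 to 169 ppm in D to F (-0.88, adjusted p = 0.0006). Foxp3, the factor of regulatory T cells, gave -0.97. Of 20 unfolded protein response genes 1 rose and 12 fell (median -0.30), led by Sdf2l1 (-0.68), and of 32 MYC and ribosome biogenesis genes none rose and 15 fell. Of 45 respiratory chain genes 1 rose and 16 fell. These counts stand beside 8.10% of all genes called higher and 9.94% called lower.

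The marks of these cells differed less between genotypes. Batf3 in Il9-high cells was 153, 109 and 123 ppm in the wild type and 163, 183 and 177 ppm in the knockout (0.45, SE 0.10, adjusted p = 0.015). That call was lost without library B (0.34, adjusted p = 0.055) or C (0.43, adjusted p = 0.0596). Sgk1 was 29.7, 19.8 and 18.9 against 18.8, 16.5 and 12.5 ppm and did not pass the test (-0.48, SE 0.18, adjusted p = 0.083), but it did without library D (-0.61, adjusted p = 0.046), with Il9 of at least 5 (-0.47, adjusted p = 0.0447) and in cluster 5 alone (-0.81, adjusted p = 0.0128).

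The third comparison asked whether Il9-high and Il9-low cells differed to the same degree in both genotypes. Of 8460 genes 5.01% were called: 177 (2.09%) had a higher and 247 (2.92%) a lower Il9-high minus Il9-low difference in the knockout, and for 134 of the 424 the mean differences had opposite signs. TMM scaling gave 182 and 146, and means per cell without division by the total gave 145 and 314. Among cells with a raw total within 20% of the median 45 and 30 were called, and the depth gap between the 2 kinds of cell was itself larger in wild-type (4972 to 7206 UMIs) than in knockout libraries (177 to 2573 UMIs). What part of the result goes with that gap was not tested further. The counts were 98 and 101 without library B and 82 and 100 without F, and the lower count was 160 without A and 149 without C.

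Xcl1, a chemokine for cross-presenting dendritic cells, differed most. In wild-type Il9-low cells it was 8.99, 11.2 and 10.8 ppm and in Il9-high cells 0.284, 0.462 and 0.137 ppm. Knockout cells had 2.92, 5.43 and 7.77 ppm against 5.09, 6.01 and 3.63 ppm. The mean log2 difference was -3.13 over A, B and C and -0.05 over D, E and F (interaction 3.08, SE 0.25, adjusted p = 4.98e-07). Cluster 2, given without a test, had 5.90, 0.469 and 3.03 ppm Xcl1 in A, B and C. In D, E and F it had 0.383, 2.03 and 1.83 ppm. Each value was below the Il9-low cells of its library, so in cluster 2 Xcl1 was low in the knockout too. Gadd45g, a growth-arrest and stress gene, fell with Il9 in A, B and C (-1.02, -0.67 and -0.42) and rose in D, E and F (0.37, 0.38 and 0.50). For Ccl22 (interaction 1.45, adjusted p = 0.00457) and Il13 (1.05, adjusted p = 0.00475) the wild-type cells of both kinds were at 0.0684 to 0.496 ppm and 0.704 to 2.68 ppm. On log2(ppm + 1) such levels pull a difference toward 0, so a smaller response in the wild type cannot be told apart from a low level. Il13 differed by 0.12, 1.11 and -0.01 in A, B and C and by 1.90, 1.29 and 1.18 in D, E and F. Library B was thus close to F. Lgals3, galectin-3, differed by -1.06 in wild-type and -0.20 in knockout libraries (0.86). The Il13 call was lost with a pseudocount of 0.1 (adjusted p = 0.11) and without cluster weights (adjusted p = 0.27).

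Other differences were smaller in the knockout. Batf3 rose by 1.76, 1.68 and 2.02 in A, B and C and by 1.47, 1.47 and 1.34 in D, E and F, without overlap (interaction -0.39, SE 0.06, adjusted p = 0.00073). Sgk1 rose by 1.40 to 1.57 against 0.96 to 1.06 (-0.47, SE 0.09, adjusted p = 0.0036), a call lost without cluster weights (-0.15, adjusted p = 0.41) and without cluster 5 (-0.34, adjusted p = 0.0501). Among cells of like depth the value was as large (-0.48) but not called (adjusted p = 0.23). Lta rose in all 6 libraries (1.24 to 1.65 against 1.17 to 1.46), and its interaction was -0.10 (SE 0.07, adjusted p = 0.503). Il12a, a subunit of IL-12 family cytokines (-0.92), Nppc (-0.85), Ly6a (-0.84) and Pkib, an inhibitor of protein kinase A (-0.80), were also lower. Coro2a had the lowest value (-0.99), but it was 0.387 to 1.46 ppm in both kinds of knockout cell, where the scale again pulls a difference toward 0. Of 24 ATF4 targets none had a higher and 15 a lower difference in the knockout (median -0.18), and 3 were lower among cells of like depth. Glycolysis genes went the other way, 7 of 17 higher and none lower, with 6 among cells of like depth. Without that limit on depth, 2.09% of all genes had a higher and 2.92% a lower difference.

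**Figure D5:**
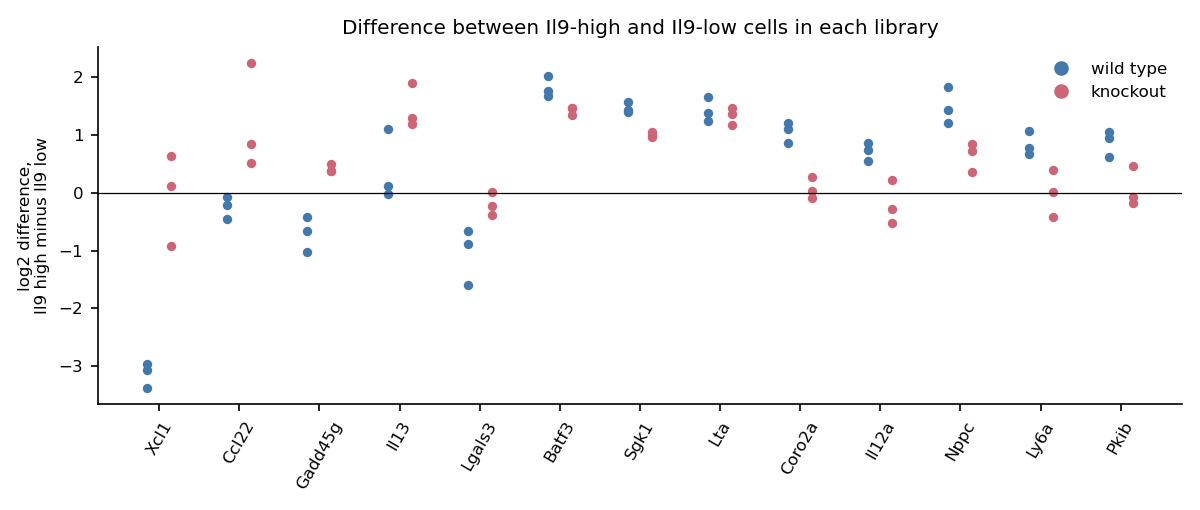
Log2 difference between Il9-high and Il9-low cells outside cluster 2 (y axis) for 13 genes, 1 point per library (blue wild type, red knockout). Wild-type points lie below the knockout points for Xcl1, Ccl22, Gadd45g, Il13 and Lgals3 and above them for Batf3, Sgk1 and the 5 genes on the right, while for Lta they overlap.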

How the data were processed

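Per the labels, polyadenylated RNA of single cells was measured in 3 wild-type and 3 Cblb-/- samples. The deposited table gives corrected counts per cell and gene, treated here as a score: the authors corrected them to a common depth with sctransform and rounded them, per the file headers. The table's raw UMI count per cell, percent of mitochondrial UMIs, cluster number, library index and genotype are also as deposited. The submitters' processing notes name Cell Ranger 3.0.2, Seurat 3.0.0 and mm10, whose roles are not given in the labels or headers. The library index names no single sample, so libraries were grouped by the deposited genotype and called A to F. No per-sample column was left unused (0), no cells were removed, no doublet caller was run, and cells were not thinned because raw counts per gene were not used here.

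Corrected counts were summed per library and kind of cell and expressed per 1000000, so no count model was used. Il9-low sums were weighted to the cluster makeup of the Il9-high cells of the library. Genes averaging 5 ppm or more were tested on log2(ppm + 1) with limma 3.58.1 (R 4.3.3, trended prior, two-sided, Benjamini-Hochberg 0.05), without Il9, and fold changes on that scale understate those of low genes. TMM scaling used edgeR 4.0.16. The first comparison and the interaction used the library as a block. Named genes were the called genes with the largest differences and the same sign in all libraries (12 per direction), without overlap between genotypes (10), or the largest interactions (5). Genes were also named from lists. The members and lists were chosen with earlier results of these data known. The fits were checked on simulated data. Alternatives were other Il9 limits, pseudocounts, filters and scalings, single clusters, cells of like depth, and leaving out each library.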

Additional observations from a re-analysis of the deposited data

Results flagged for a closer look

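Of 424 genes (5.01% of those tested) whose difference between Il9-high and Il9-low cells was itself different between knockout and wild-type libraries, by limma's interaction test with adjusted p under 0.05, 17 are named here. The knockout difference was higher for Xcl1 (by 3.08 on the log2 scale), Ccl22 (1.45), Gadd45g (1.12), Il13 (1.05), Lgals3 (0.86), Pacsin1 (0.40) and Igfbp7 (0.34). It was lower for Coro2a (-0.99), Il12a (-0.92), Nppc (-0.85), Ly6a (-0.84), Pkib (-0.80), Anxa3 (-0.80), Serpina3g (-0.65), Sgk1 (-0.47), Il1a (-0.46) and Batf3 (-0.39). The low levels of Ccl22 and Il13 in the wild type and of Coro2a in the knockout pull their differences there toward 0. Il13 still rose by 1.11 in wild-type library B, close to knockout library F (1.18). Among cells of like depth Lgals3 (0.85, adjusted p = 0.188) and Sgk1 (-0.48, adjusted p = 0.232) kept their size but were not called, while Ly6a was nearer 0 (-0.36, adjusted p = 0.821).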

How the results depend on the processing

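Genes called higher and lower in Il9-high cells were 944 and 2448 with TMM scaling, 128 and 150 in cluster 0 alone, 359 and 412 in cluster 5 alone, and 901 higher among cells of like depth. Between genotypes the counts were 77 and 56 in cluster 0 alone, 238 and 172 in cluster 5 alone, and 427 higher with a minimum of 20 ppm. Leaving out 1 library gave 369 to 981 higher and 315 to 926 lower. For the interaction they were 103 and 137 with Il9 of at least 20, 312 and 440 with at least 5, 146 lower with TMM scaling, 45 and 30 among cells of like depth, and 82 to 239 higher and 100 to 297 lower without 1 library. Single clusters, the depth range and left-out libraries hold fewer cells or samples, and for the other settings the cause was not tested. The interaction of Ly6a reversed with Il9 of at least 20 (0.11, limma adjusted p = 0.897). The gap in raw UMIs was 2878.75 with Il9 of at least 5 (exact sign-flip p = 0.09375), 2529.42 without cluster weights (p = 0.1562, exact), and 2995.7 to 4401.5 without 1 library (exact p = 0.0625, the smallest 5 libraries allow). For named genes, 488 of 498 values of the first comparison kept direction and call, 433 of 450 of the second and 205 of 216 of the third. Clusters 3 and 4 alone could not be fitted, with fewer than 10 of the cells in some library. No paired analysis was possible because the library columns carry no replicate number. The correction for depth before deposit hides raw counts per gene, and levels near 1 ppm rest on few molecules.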

Other observations

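The 2 largest falls between genotypes in Il9-high cells outside cluster 2, Coro2a and Trmo, lie near each other on chromosome 4 of mm10. Between them are 147500 bases, which hold the tested genes Anp32b and Nans. Trmo lies at chr4:46376505-46389437 and Coro2a at chr4:46536937-46602202. The closeness of Coro2a and Trmo was noticed after their values were seen. Of 7 genes tested within 500000 bases on each side, 3 were called, but the window was placed around 2 of these 3. The count can therefore not be set against the 18.0% of all genes tested. The 3 were Coro2a (-2.99), Trmo (-2.04) and Ncbp1 (-0.24, limma adjusted p = 0.0172). Anp32b (-0.16, limma adjusted p = 0.0543), Nans (-0.02), Tstd2 (0.27) and Xpa (0.19) did not pass the test.

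A single cell of cluster 0 carried 200 or more Il9 counts, the only cell outside clusters 2 and 5 in that range of the table.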
